A study of Arabidopsis thaliana with 10 samples.

Results

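KNOX and BELL proteins are homeodomain transcription factors of the TALE class, and 10 of their genes were followed in the inflorescence stem of Arabidopsis thaliana. The set was chosen by locus: the class I KNOX genes KNAT1 (also called BREVIPEDICELLUS, AT4G08150), STM (AT1G62360), KNAT2 (AT1G70510) and KNAT6 (AT1G23380), the class II KNOX genes KNAT3 (AT5G25220), KNAT4 (AT5G11060), KNAT5 (AT4G32040) and KNAT7 (AT1G62990), and the BELL genes BLH6 (AT4G34610) and PNY (PENNYWISE, AT5G02030, which RefSeq lists as RPL). All 10 were among the 23615 genes listed in each library, and all 10 were among the 18858 genes that reached 1 FPKM (fragments scaled to transcript length and to the mapped fragments of the library) in at least 1 library, called measured genes here.

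RNA was sequenced from stems 20 cm tall, grown with 16 h of light and 8 h of darkness at 22 °C, and cut into segments counted from the tip. The groups were an atx1 mutant at segment II (5 to 7 cm, 1 library), and the wild type, accession Col, at segment I (0 to 3 cm), segment II and segment III (10 to 12 cm), with 1 library each. ATX1 is a methyltransferase of lysine 4 on histone H3. The labels give neither the atx1 allele, nor the age of the plants, nor whether a library pooled several of them. The H3K4me3 and input libraries of this series were not analysed here.

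Class I KNOX proteins keep cells of the shoot meristem undifferentiated and, in stems, shape internodes, and KNAT1 is known to hold back lignin deposition. Class II KNOX proteins act in differentiating organs. Among them KNAT7 is a regulator of secondary walls that lies downstream of the NAC factor SND1 and of MYB46, and loss of KNAT7 is known to alter the walls of fibres and vessels. BELL proteins pair with KNOX proteins, which bears on nuclear entry and DNA binding: PNY pairs with STM and KNAT1, and BLH6 with KNAT7.

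The libraries were of like depth, at about 18900000 to 20200000 fragments as read from the steps that single fragments leave in low values. With 1 library per group there is no replicate, so no difference below has a test, a p-value or an error between plants, and a gene is called higher or lower when log2(FPKM + 1) differed by at least 1, which is 2-fold on that scale. This scale understates the differences of low genes. The smallest value of any of the 10 genes, 5.07 FPKM for KNAT4 in WT I, stands for about 102 fragments per kilobase of transcript, which gives a counting error of 9.88%. Counting error leaves out the variation between plants and copies made by PCR. How reads shared by paralogs were divided is not given, so the split between KNAT2 and KNAT6, and among KNAT3, KNAT4 and KNAT5, is uncertain. In whole stem segments, fewer cells of a type and less RNA per cell cannot be told apart.

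ATX1 (AT2G31650) was at 21.76 FPKM in the library labelled atx1 II, against 6.09 FPKM in WT II, and at 4.02 and 3.54 FPKM in WT I and WT III. The gene was thus higher where the label names its mutant. The values do not say which stretch of the ATX1 transcript the reads came from, and each direction given for the library labelled atx1 II rests on that label.

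The tissue label was checked with marker lists. Fibre markers (SND1 and NST1) summed to 20.2, 141 and 175 FPKM along WT I, II and III, and 4 xylem vessel markers to 191, 546 and 345 FPKM. Of the vessel sum, XCP2 made up 95.75, 402.87 and 249.73 FPKM. XCP1 was at 82.83, 125.30 and 84.34 FPKM, VND6 at 9.47, 11.75 and 8.80 FPKM and VND7 at 2.75, 5.88 and 2.48 FPKM. In WT III these last genes were thus near their WT I values. The 4 phloem markers summed to 158, 262 and 270 FPKM, of which the sucrose carrier gene SUC2 made up 71.44, 162.99 and 206 FPKM. SEOR1, at 69.69, 79.23 and 48.25 FPKM, and CALS7, at 6.29, 5.79 and 2.83 FPKM, were lowest in WT III. The cambium markers summed to 56.6, 52.7 and 77.9 FPKM, with WOX4 at 24.63, 14.22 and 19.65 FPKM and PXY at 31.94, 38.52 and 58.20 FPKM. The 4 epidermis markers summed to 142, 51.9 and 50.02 FPKM, with PDF1 at 42.94 and 0.04 FPKM and then listed at 0. The 5 floral organ markers summed to 9.09, 3.03 and 2.24 FPKM, with AP3, PI and AG listed at 0 in WT II and WT III. Of the 3 meristem markers, the stem cell genes WUS and CLV3 were at no more than 0.12 FPKM in any wild-type library, while the receptor gene CLV1 was at 15.94, 25.06 and 23.04 FPKM in WT I, II and III.

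In segment II of the wild type, 4 of the 10 genes were at least 2-fold higher than in segment I and none was lower. The 4 were KNAT7, BLH6, KNAT4 and KNAT3. Over all 18858 measured genes, 9.88% were higher and 16.1% lower by the same rule. The median difference of the 10 genes was 0.75 on the log2 scale, beside -0.13 for all measured genes. Median-of-ratios scaling put the median over all measured genes at 0.02 and gave 2322 genes higher and 2482 lower in place of 1863 and 3031, and the same 4 members were called. Beside these differences, the summed fibre markers were higher in WT II (141 FPKM, against 20.2 FPKM in WT I) and the summed epidermis markers lower (51.9 FPKM, against 142 FPKM in WT I). Their part in the differences was not tested.

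KNAT7, the class II factor of secondary walls, had the widest range of the set. It was at 7.73 FPKM in WT I, 101.81 FPKM in WT II and 122.83 FPKM in WT III. The value in WT I stood far below the other 2, which lay within 2-fold of each other. WT II was 13.2 times WT I, a log2 difference of 3.56, and 85 of the 18858 measured genes differed more on the higher side.

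The rank of KNAT7 within the set turned over along the stem. In WT I it was ninth of 10, above KNAT4 alone, and its level exceeded that of 39.8% of measured genes. In WT II and WT III it was the highest of the 10, above 93.9% and 95.0% of measured genes. KNAT7 made up 19.3% of the summed class II FPKM in WT I, 57.7% in WT II and 60.2% in WT III.

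BLH6, the BELL partner of KNAT7, was also low at the tip but peaked in the middle segment, at 13.38 FPKM in WT I, 59.81 FPKM in WT II and 38.32 FPKM in WT III. WT II was 4.47 times WT I, a log2 difference of 2.08. Between WT III and WT II the log2 difference of BLH6 was -0.63, within 2-fold, while that of KNAT7 was 0.27. The ratio of KNAT7 to BLH6 was therefore 0.578 in WT I, 1.70 in WT II and 3.21 in WT III.

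**Figure D1:**
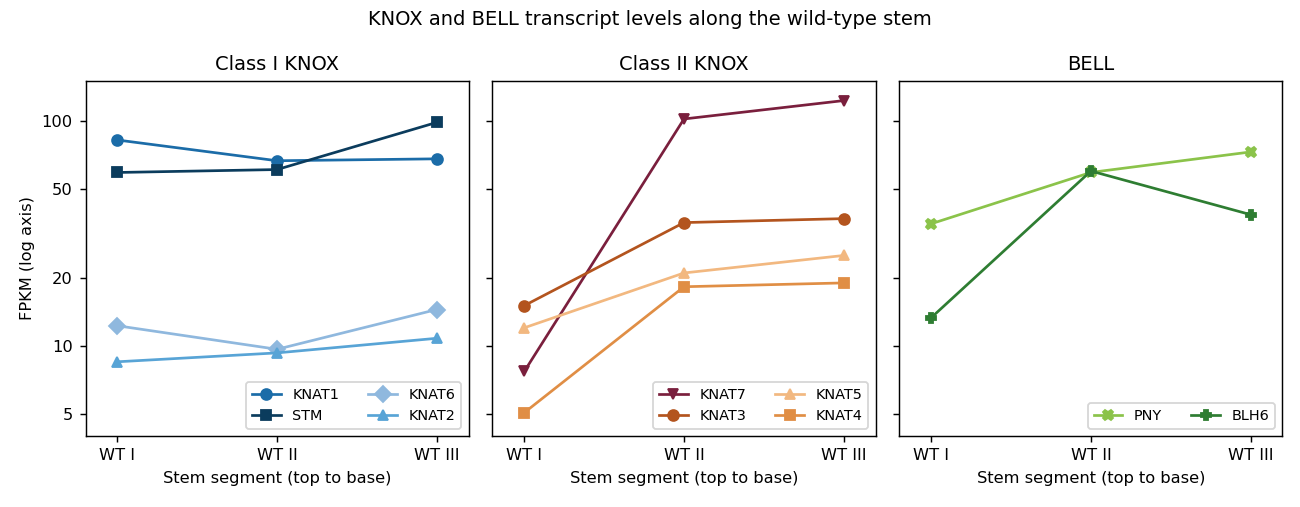
FPKM (log axis) of the class I KNOX, class II KNOX and BELL genes in wild-type stem segments I, II and III, 1 library per point. KNAT7 is at 7.73 FPKM in WT I, 101.81 FPKM in WT II and 122.83 FPKM in WT III, the other class II genes step up less, and the class I genes stay within 2-fold of their own level in every segment.

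KNAT3, KNAT4 and KNAT5, the remaining class II genes, were lowest at the tip and alike in segments II and III. KNAT3 was at 15.13, 35.32 and 36.78 FPKM in WT I, II and III. KNAT4 was at 5.07, 18.34 and 19.07 FPKM. KNAT5 was at 12.06, 21.11 and 25.24 FPKM.

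For all 3 the lowest wild-type value was at the tip, and WT III was 1.04 to 1.20 times WT II. Between WT II and WT I the log2 difference was 1.17 for KNAT3 and 1.67 for KNAT4, while KNAT5, at 0.76, lay within 2-fold. The sum of the 3 was 32.3 FPKM in WT I, 74.8 FPKM in WT II and 81.1 FPKM in WT III. KNAT3 held 45.4% to 47.2% of that sum in the 3 segments, while the ratio of KNAT3 to KNAT4 was 2.98 in WT I and 1.93 in both WT II and WT III.

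The class I genes did not share this step. KNAT1, which shapes internodes, was at 82.12 FPKM in WT I, 66.44 FPKM in WT II and 67.75 FPKM in WT III. STM, the meristem factor, was at 58.93, 60.72 and 98.28 FPKM. KNAT1 was the highest of the 10 genes at the tip and STM stood above it in WT III, and the ratio of KNAT1 to STM was 1.39, 1.09 and 0.689 in WT I, II and III.

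KNAT2 and KNAT6, a close pair of class I genes, were several-fold lower. KNAT2 was at 8.52, 9.33 and 10.83 FPKM and KNAT6 at 12.31, 9.68 and 14.53 FPKM in WT I, II and III. No class I gene differed by 2-fold between any pair of wild-type segments. KNAT1 and STM together held 86.7% to 87.1% of the summed class I FPKM in all 3 segments.

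PNY, the BELL partner of class I proteins, was at 34.91 FPKM in WT I, 58.97 FPKM in WT II and 72.68 FPKM in WT III, higher in each successive segment. Its differences were 0.74 between WT II and WT I, within 2-fold, and 1.04 between WT III and WT I, just past it. Between WT III and WT II it differed by 0.30, beside a median of 0.19 for all measured genes. Median-of-ratios scaling put that last step at 0.09.

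The share of class II genes among KNOX transcripts was lowest at the tip. The 4 class I genes summed to 162, 146 and 191 FPKM in WT I, II and III, and the 4 class II genes to 40.0, 177 and 204 FPKM. Class II genes were thus 19.8% of the 8 KNOX genes in WT I, 54.7% in WT II and 51.6% in WT III. These sums rest on FPKM, which is scaled to transcript length, and not on protein.

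**Figure D2:**
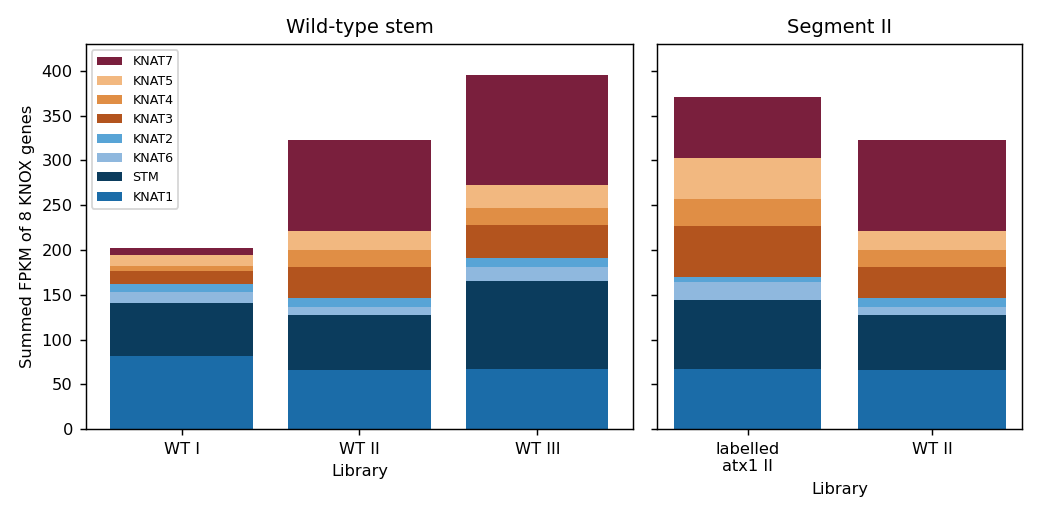
Stacked FPKM of the 8 KNOX genes in wild-type segments I, II and III (left) and in the library labelled atx1 II and WT II (right), 1 library per bar. The class I part stays between 146 and 191 FPKM in all libraries, and KNAT7 is a thin layer in WT I and the largest layer in WT II and WT III.

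Segments III and II of the wild type differed little in these genes. None of the 10 differed by 2-fold, where 2.85% of measured genes were higher and 2.35% lower in WT III. The largest differences were 0.69 for STM and -0.63 for BLH6 on the log2 scale, beside a median over all measured genes of 0.19. Under median-of-ratios scaling the small positive differences of KNAT1, KNAT3 and KNAT4 turned negative, to -0.18, -0.15 and -0.15, so these 3 have no settled direction here, and the calls over all genes became 310 higher and 744 lower in place of 538 and 444.

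Set end to end, WT III had 6 of the 10 genes at least 2-fold higher than WT I and none lower, where 12% of measured genes were higher and 12.4% lower. They were KNAT7 (3.83), KNAT4 (1.73), BLH6 (1.45), KNAT3 (1.23), PNY (1.04) and KNAT5 (1.01), each value being a log2 difference. KNAT5 sat almost on the threshold, and median-of-ratios scaling put it at 0.98. The remaining 4 were the class I genes, from STM at 0.73 to KNAT1 at -0.27.

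The 10 genes of the library labelled atx1 II did not move as a block against WT II. BLH6 was lower and KNAT5 higher by at least 2-fold, and 8 lay within 2-fold, where 8.32% of measured genes were lower and 14.1% higher. The median difference of the 10 was 0.18 on the log2 scale, beside 0.28 for all measured genes. Under median-of-ratios scaling, which put the median over all measured genes at 0.03 and gave 1698 genes higher and 2239 lower in place of 2665 and 1569, BLH6 was still lower and KNAT5, at 0.81, was no longer called. Set against WT III, 0 of the 10 were higher and 1, BLH6, was lower, where 9.61% of measured genes were higher and 9.03% lower. Set against WT I, KNAT7, KNAT4, KNAT3 and KNAT5 were higher and none was lower, where 19.8% were higher and 17.6% lower.

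BLH6 differed most. It was at 12.47 FPKM in the library labelled atx1 II, against 59.81 FPKM in WT II, a ratio of 0.208 and a log2 difference of -2.17. Only 275 of the 18858 measured genes differed more on the lower side. The level was close to the 13.38 FPKM of WT I, from which it differed by -0.09, and it was also below the 38.32 FPKM of WT III, by -1.55.

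KNAT7 was at 67.55 FPKM in the library labelled atx1 II, against 101.81 FPKM in WT II, a ratio of 0.663. The log2 difference of -0.58 lay within 2-fold, and set against the median of all measured genes it was -0.86. Unlike BLH6, KNAT7 was far from its WT I level, at 8.74 times the 7.73 FPKM found there. The ratio of KNAT7 to BLH6 was 5.42 in the library labelled atx1 II, against 1.70 in WT II, and exceeded that of every wild-type segment.

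KNAT3, KNAT4 and KNAT5 had their highest values in the library labelled atx1 II. KNAT3 was at 57.71 FPKM, against 35.32 FPKM in WT II. KNAT4 was at 29.58 FPKM, against 18.34 FPKM in WT II. KNAT5 was at 46.14 FPKM, against 21.11 FPKM in WT II.

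The log2 differences were 0.69, 0.66 and 1.09 in the same order, beside a median of 0.28 for all measured genes. All 3 stayed positive under every scaling, pseudocount and wild-type segment tried, but median-of-ratios scaling put them at 0.41, 0.39 and 0.81. Before that scaling, 4996, 5313 and 2192 of the 18858 measured genes differed more on the higher side. Their sum was 133 FPKM in the library labelled atx1 II, against 74.8 FPKM in WT II. Since KNAT7 was lower at the same time, it held 33.6% of class II FPKM in that library, against 57.7% in WT II, while class II as a whole held 54.2% of the summed FPKM of the 8 KNOX genes in that library, against 54.7% in WT II.

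**Figure D3:**
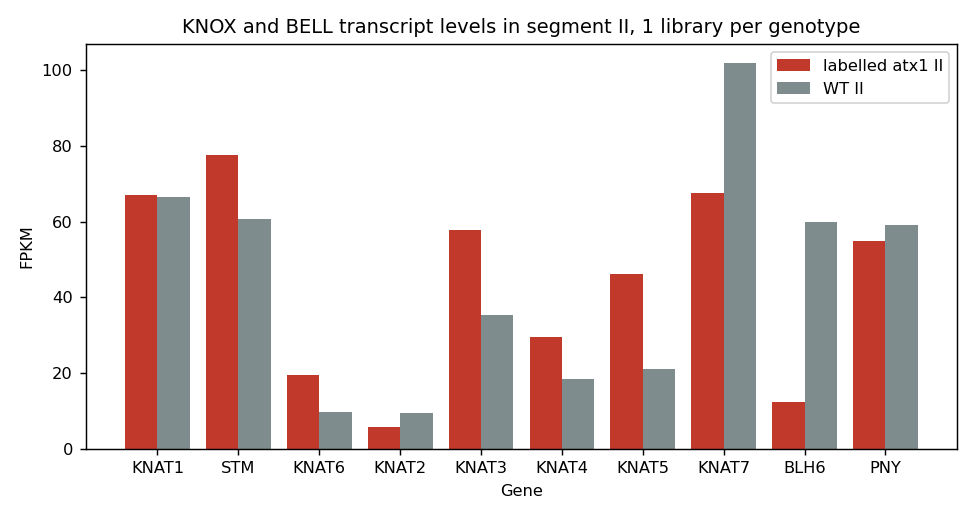
FPKM of the 10 genes in the library labelled atx1 II (red, left bar) and in WT II (grey, right bar), 1 library per bar. BLH6 is at 12.47 FPKM against 59.81 FPKM in WT II and KNAT5 at 46.14 FPKM against 21.11 FPKM. The other 8 genes lie within 2-fold on the log2(FPKM + 1) scale.

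Among class I genes, KNAT1 was at 66.90 FPKM in the library labelled atx1 II, against 66.44 FPKM in WT II, a difference of 0.01 that median-of-ratios scaling put at -0.27. STM was at 77.50 FPKM, against 60.72 FPKM in WT II and 98.28 FPKM in WT III, so its direction depended on the wild-type segment it was set against. PNY was at 55.00 FPKM, against 58.97 FPKM in WT II. These 3 lay within 2-fold.

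KNAT2 and KNAT6 went opposite ways. KNAT6 was at 19.46 FPKM in the library labelled atx1 II, against 9.68 FPKM in WT II, and KNAT2 at 5.80 FPKM, against 9.33 FPKM in WT II. KNAT6 was the nearest gene under the threshold, at 0.94, and reached it with a pseudocount of 0.1 FPKM, while KNAT2 was at -0.60. The ratio of KNAT6 to KNAT2 was 3.36 in the library labelled atx1 II, against 1.04 in WT II, and 1.44 and 1.34 in WT I and WT III. As the 2 are paralogs, whether shared reads bear on this ratio was not tested.

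Beside these differences, the 4 vessel markers summed to 110 FPKM in the library labelled atx1 II, against 546 FPKM in WT II, with all 4 at least 2-fold lower. The fibre markers summed to 87.5 FPKM, against 141 FPKM in WT II, with neither past 2-fold. The 3 meristem markers summed to 39.8 FPKM, against 25.2 FPKM in WT II. Most of that sum was CLV1, at 36.23 FPKM, against 25.06 FPKM in WT II, a log2 difference of 0.51 within 2-fold, while CLV3 was at 3.59 FPKM, against 0.12 FPKM in WT II, and WUS was listed at 0 in both. The cambium markers WOX4 and PXY summed to 31.2 FPKM, against 52.7 FPKM in WT II. The part of these shifts in the levels of the 10 genes was not tested.

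**Figure D4:**
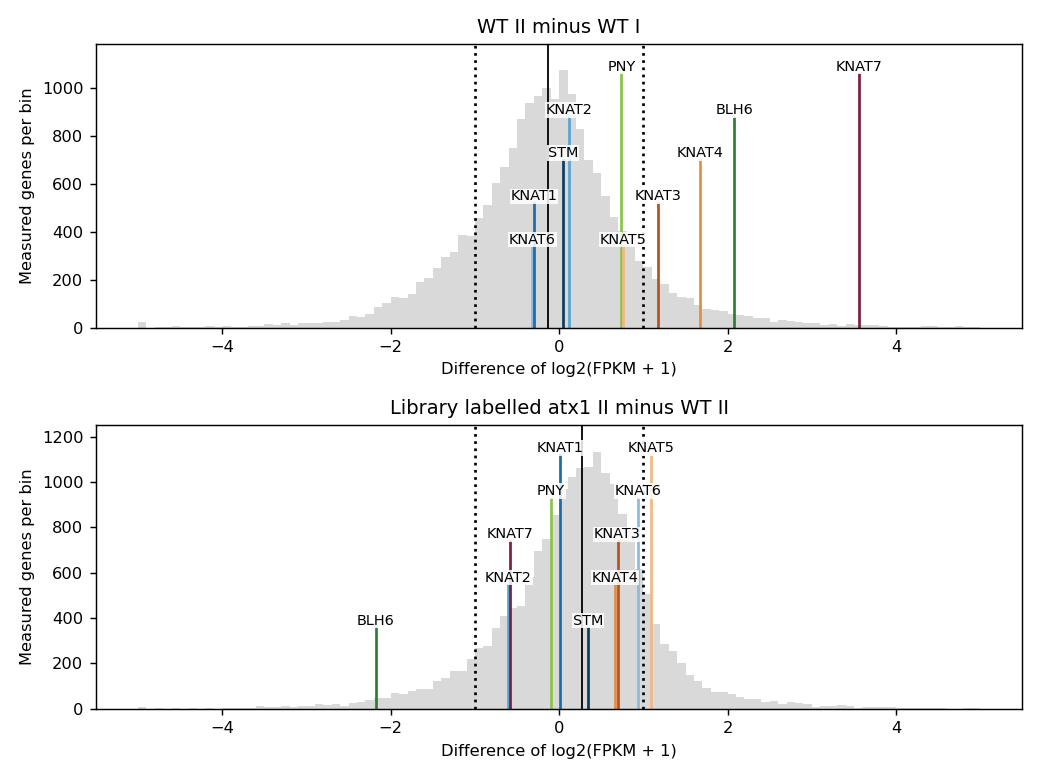
Differences of log2(FPKM + 1) for WT II minus WT I (top) and for the library labelled atx1 II minus WT II (bottom). Grey bars count the 18858 measured genes in bins of equal width, with values beyond the axis limits drawn at the ends. The black line is their median (-0.13 and 0.28), dotted lines mark 2-fold, and coloured lines mark the 10 genes, with KNAT7 at 3.56 in the top panel and BLH6 at -2.17 in the bottom panel.

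Other BELL genes also differed along the stem. Of 12 further TALE genes, 11 were listed and 9 measured. Of the 9, 5 were at least 2-fold higher in WT II, relative to WT I, and none was lower, with a median log2 difference of 1.12, beside 9.88% higher and 16.1% lower over all measured genes, the shares that apply to each list below too. BLH2 and BLH4, the SAWTOOTH genes, which shape leaf margins by holding back class I KNOX genes, were at 47.21 and 23.99 FPKM in WT II, against 3.35 and 2.40 FPKM in WT I. BEL1, an ovule regulator, was at 16.66 FPKM in WT II, against 1.76 FPKM in WT I, and BLH10 at 32.61 FPKM, against 10.92 FPKM in WT I.

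No further BELL gene differed by 2-fold between WT III and WT II. In the library labelled atx1 II, 2 of the 9 were higher than in WT II and none was lower, with a median of -0.07, beside 0.28 for all measured genes, of which 14.1% were higher and 8.32% lower, shares that apply to the lists below as well. They were BEL1, at 35.86 FPKM against 16.66 FPKM in WT II, and BLH5, at 3.48 FPKM against 1.17 FPKM in WT II. BLH3 was at 44.25 FPKM, against 21.95 FPKM in WT II, just under the threshold at 0.98. BLH4 was at 14.74 FPKM, against 23.99 FPKM in WT II, a difference of -0.67 within 2-fold. BLH8 (POUND-FOOLISH), the closest relative of PNY, stayed at 2.93 to 4.45 FPKM in the 4 libraries, and ATH1, another BELL partner of STM, at 0.12 to 0.41 FPKM; both were named after their values were seen.

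**Figure D5:**
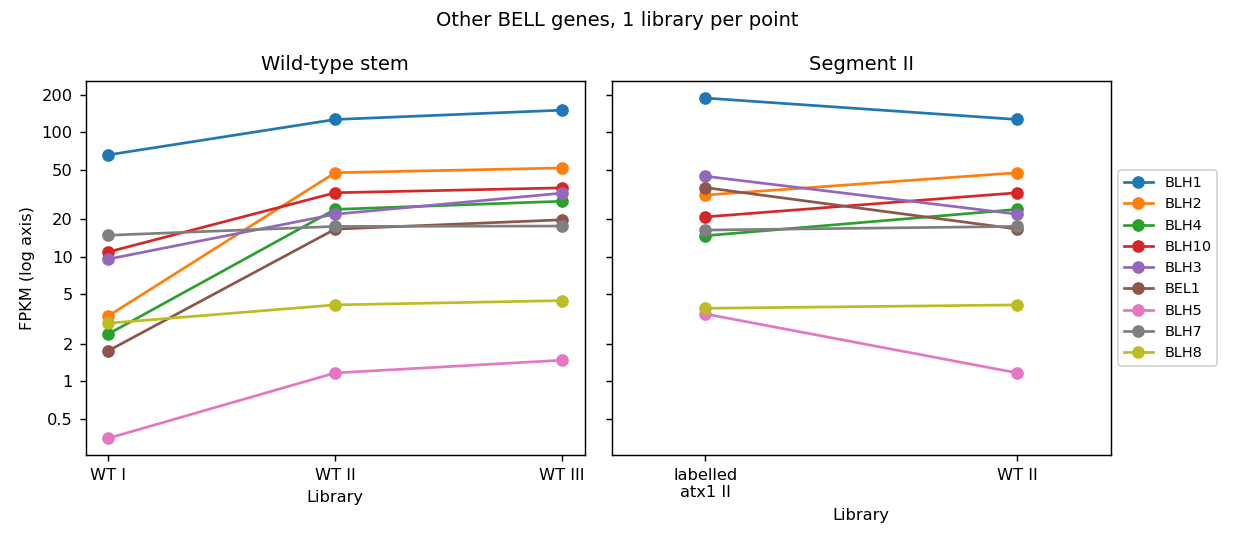
FPKM (log axis) of the 9 further measured BELL genes in wild-type segments I, II and III (left) and in the library labelled atx1 II and WT II (right), 1 library per point. BLH2, BLH4 and BEL1 show the steepest step from WT I to WT II. In the right panel BEL1 and BLH5 are at least 2-fold higher in the library labelled atx1 II. The other 7 genes lie within 2-fold on the log2(FPKM + 1) scale.

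OVATE family proteins bind TALE proteins, and OFP1 and OFP4 are known partners of KNAT7. Of 16 genes fixed, 15 were listed and 10 measured. In WT II against WT I, 2 were higher and 1 lower, with a median of -0.07. OFP3 was at 9.95 FPKM in WT II, against 0.46 FPKM in WT I, OFP10 at 9.53 FPKM, against 3.59 FPKM in WT I, and OFP12 at 0.29 FPKM, against 3.16 FPKM in WT I. Against WT II, the library labelled atx1 II had 0 higher and 1 lower, OFP15, at 0.61 FPKM against 9.56 FPKM in WT II. OFP1 was at 4.16 FPKM in the library labelled atx1 II, and at 2.78, 4.72 and 6.42 FPKM in WT I, II and III, and OFP4 was at no more than 0.05 FPKM anywhere; this pair was named for its link to KNAT7, after the values were seen.

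Of 12 regulators of class I KNOX genes, 11 were listed and 7 measured. JLO, a LOB-domain gene of organ boundaries, was the only one called higher in segment II of the wild type, at 13.25 FPKM against 2.93 FPKM in WT I, and FIL, listed at 0 in WT II, against 1.13 FPKM in WT I, the only one called lower. In the library labelled atx1 II, JLO was at 3.52 FPKM, against 13.25 FPKM in WT II, and AS1, a MYB repressor of KNAT1, KNAT2 and KNAT6, was at 5.52 FPKM, against 14.60 FPKM in WT II. These were the 2 of 7 called lower, and none was called higher. Between the same libraries the log2 differences of KNAT1, KNAT2 and KNAT6 were 0.01, -0.60 and 0.94, all within 2-fold. The 8 Polycomb group genes, which keep class I KNOX genes silent in leaves, were all measured and none differed by 2-fold in either comparison.

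Gibberellin and cytokinin genes known to lie downstream of class I KNOX proteins varied gene by gene. Of 8 genes, 6 were measured. The cytokinin synthesis gene IPT7, which STM activates, was at 3.22 FPKM in the library labelled atx1 II, and at 9.86, 16.50 and 3.32 FPKM in WT I, II and III. IPT5 was at 7.68 FPKM in the library labelled atx1 II, and at 0.44, 3.51 and 4.57 FPKM in WT I, II and III. The gibberellin synthesis gene GA3OX1 was at 4.41 FPKM in the library labelled atx1 II, and at 3.49, 0.30 and 0.80 FPKM in WT I, II and III. Against WT I, WT II had 1 gene of the 6 higher (IPT5) and 1 lower (GA3OX1), and against WT II the library labelled atx1 II had 1 higher (GA3OX1) and 1 lower (IPT7).

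The regulators that KNAT7 and BLH6 are linked to were counted on the same footing. Of 9, WT II had 4 higher than WT I and 0 lower (median 0.88), and the library labelled atx1 II had 0 higher and 5 lower than WT II (median -1.29). The 5 were MYB46, VND6, VND7, MYB83 and NST2, of which VND6 and VND7 were already counted among the vessel markers. The other 4 lay within 2-fold on the log2(FPKM + 1) scale, as KNAT7 did, with SND1 at -0.68, NST1 at -0.65, REV at 0.26 and MYB75 at 0.86. SND1 and NST1 are also the fibre markers. MYB75 was at 1.10 FPKM in the library labelled atx1 II, against 0.16 FPKM in WT II, levels at which this scale understates differences. NST2, SND1, NST1 and MYB75 were named to complete the list. REV, a HD-ZIP III gene that BLH6 and KNAT7 are known to repress, was at 19.78 FPKM in the library labelled atx1 II, and at 24.08, 16.30 and 28.63 FPKM in WT I, II and III, with no 2-fold difference between any of the pairs compared. REV was named for that link after its values were seen. Of 15 wall genes tied to KNAT1, KNAT3, KNAT7 or BLH6, WT II had all 15 higher than WT I, and 12 were lower and 1 higher in the library labelled atx1 II than in WT II. The 1 was FAH1, ferulate 5-hydroxylase of syringyl lignin, which KNAT3 and KNAT7 are known to promote, at 154.70 FPKM in the library labelled atx1 II, and at 12.66, 35.49 and 230.48 FPKM in WT I, II and III.

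Genes of like pattern were sought among 6080 named genes that reached 10 FPKM, by the distance between log2(FPKM + 1) profiles centred over the 4 libraries. KNAT7 and BLH6 had few near matches. For KNAT7 they were CAN, a calcium-dependent nuclease (distance 0.13), BLH2 (0.17) and CAD5, a dehydrogenase of lignin monomer synthesis (0.35), and 2 genes lay within 0.25. For BLH6 they were XCP2, a xylem vessel protease (0.08), WPP1 (0.31) and CYP90D1, of brassinosteroid synthesis (0.33), and 1 gene lay within 0.25.

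CAN was at 53.57 FPKM in the library labelled atx1 II, and at 6.18, 74.70 and 91.55 FPKM in WT I, II and III. XCP2 was at 91.93 FPKM in the library labelled atx1 II, and at 95.75, 402.87 and 249.73 FPKM in WT I, II and III. The levels of CAN and BLH2 in the library labelled atx1 II were 71.7% and 66.2% of those in WT II, and the level of XCP2 was 22.8%. Both libraries entered the distance by which these genes were picked. Percentages near those of KNAT7 and BLH6 therefore follow from that choice and are no separate observation. The distance between KNAT3 and KNAT5 was 0.34, the smallest between any 2 of the 10 genes, followed by KNAT3 and KNAT4 at 0.42 and STM and PNY at 0.50.

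The members other than KNAT7 and BLH6 had more near matches. The distance was not scaled to the range of each gene, so the number within 0.25 also depends on that range. The highest level over the lowest in the 4 libraries was 15.9 for KNAT7, 5.83 for KNAT4, 4.80 for BLH6 and 1.24 for KNAT1. STM lay nearest WOL, a cytokinin receptor (0.05), and HB-8, a HD-ZIP III gene of vascular tissue (0.09), with 47 genes within 0.25. KNAT2 lay nearest CLF, a Polycomb methyltransferase (0.06), with 68 within 0.25, and KNAT5 had MYC3, a jasmonate response factor, among its nearest (0.10), with 42. KNAT1 had 217 genes within 0.25, KNAT6 140, PNY 49, KNAT3 28 and KNAT4 17. With 4 libraries such likeness is a description of these profiles.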

How the data were processed

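Gene-level FPKM values were deposited by the authors for 4 RNA libraries, to 2 decimals per the file headers, and 6 of the 10 samples (H3K4me3 and input) were not analysed here. Trimmomatic, HISAT, Bowtie2, RSEM and the build TAIR10 are named for these libraries, per the submitters' processing notes, without versions or roles. The FPKM were not rescaled; log2(FPKM + 1) was subtracted between libraries, over genes with at least 1 FPKM in at least 1 library. With 1 library per group no test was run. Depth was estimated from genes 250 to 900 bp long with values above 0 and below 1 FPKM, of which 70.4% to 72.2% lay within 0.15 of a whole fragment at the best fit of depth and length offset, so it is approximate. Names were matched through RefSeq's table for TAIR10.1. Named genes were all 10 members, up to 4 genes of each list with the largest difference in a comparison, and the 3 named genes nearest each member in profile. Exceptions are given as such. The members and lists were chosen with earlier results of these data known. Alternatives were other pseudocounts, no filter, TPM and median-of-ratios scaling, and WT III or WT I in place of WT II. Python 3.11.15 and pandas 2.3.3 were used.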

Additional observations from a re-analysis of the deposited data

How the results depend on the processing

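Among the 10 genes, the calls between wild-type segments were the same with a pseudocount of 0.1 or 0.5 FPKM, with no filter and with TPM scaling, and median-of-ratios scaling changed only KNAT5 between WT III and WT I (0.98 on the log2 scale). The number of the 10 called higher in the library labelled atx1 II, 1 against WT II, was 2 with a pseudocount of 0.1 FPKM, 0 with median-of-ratios scaling, 0 against WT III and 4 against WT I. The number called lower, 1 against WT II, was 0 against WT I. KNAT7 was lower than in WT II and WT III and higher, by 2.97, than in WT I. Over all measured genes, those higher in WT III, relative to WT II, numbered 1263 with a pseudocount of 0.1 FPKM and 310 with median-of-ratios scaling, and those lower 796 and 744. Those higher in the library labelled atx1 II than in WT II numbered 1698 with median-of-ratios scaling. The causes of these shifts were not tested. No paired analysis was possible because each group had 1 library and the labels give no replicate numbers. Depth limits genes near 0 FPKM more than any of the 10.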
